A study of Mus musculus with 4 samples.

Results

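The genes described here encode chromatin modifiers, the enzymes and complex subunits that write, remove or read marks on DNA and histones, or move nucleosomes. They were read in lung group 2 innate lymphoid cells (ILC2s), lymphocytes without an antigen receptor that make type-2 cytokines in response to IL-33. Members were chosen by gene symbol from a fixed list of 48 names, of which 47 had a row in both deposited tables, out of 22558 genes with counts. The remaining name, G9a, is an older name of Ehmt2, which is itself on the list. All 47 passed the filter on low counts and were tested, each with values in all 4 libraries.

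RNA sequencing compared 2 WT with 2 ICAM-1 KO libraries of activated ILC2s, to ask what loss of the adhesion molecule ICAM-1 does to their transcriptome. The WT libraries came from C57BL/6 mice and the others from mice with a germline disruption of Icam1, so every cell of those animals carries it and not ILC2s alone. Mice of both groups were 6 weeks old and had 3 intranasal challenges with 0.5 µg rmIL-33, lungs were taken on day 4, and each library was made from the ILC2s of 4 pooled mice. No unchallenged mice were among the libraries, so each comparison is between activated cells. ILC2s had been sorted for RNA as lineage-negative cells with CD45, ST2 and CD127 on their surface.

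Totals ranged from 24796148 to 28782471 counts per library. Icam1 itself was read at 2579 and 2630 counts in WT against 2812 and 3453 elsewhere, a log2 fold change of 0.33 (SE 0.108, adjusted p = 0.0745), so its RNA was not lower where the label says knockout. Gene counts cannot show whether those transcripts lack the disrupted part, and the libraries are therefore called "labelled ICAM-1 KO" or KO-labelled. The paper reports that its knockout mice lack ICAM-1 protein, measured by flow cytometry on lung ILC2s after rmIL-33. It does not say that those mice were the pools sequenced here. ILC2 markers were present in every library: the summed normalized counts of 12 ILC2 genes were 5420 and 6065 in WT and 4963 and 5180 in the KO-labelled libraries. Markers of other cells rose with the label. All 8 endothelial markers were called higher (summed levels 149.8 and 152.2 in WT, 367.1 and 392.8 in KO-labelled libraries), 7 of 8 macrophage and monocyte markers (262.1 and 259.0, then 537.2 and 798.9), 6 of 8 B and plasma cell markers (1116 and 2336, then 4270 and 5987), 6 of 12 T cell markers (712.6 and 805.1, then 1088 and 1285) and 4 of 5 tested alveolar epithelial markers (68.6 and 35.1, then 394.7 and 808.3). None of the genes on the endothelial, macrophage, B cell and T cell lists was at 0 in any library, and Sftpb of the alveolar list was at 0 in at least 1. Of 12 proliferation markers 2 were called lower and none higher (summed levels 2913 and 3035, then 2640 and 2526). Both KO-labelled libraries were below both WT libraries for 8 of the 12 (66.7%, against 31.3% of all genes tested). The values of the other 4 overlapped between groups. Per kb of exon, the highest genes of these lists by group mean were Cldn5, Lyz2, Ighm, Trbc2, Sftpc and Pcna in both groups. In WT the place of Sftpc rests on replicate 1 (23.4 per kb, Sftpa1 11.1). In WT replicate 2 Sftpc was at 0.551 per kb and Sftpa1 at 8.06. Among ILC2 genes, of which 1 of 12 was called higher and 3 lower, Il5 was highest in WT and Areg in KO-labelled libraries. Of the other lists, the called ones were 4 of 6 regulatory T cell markers, 2 of 3 dendritic, 2 of 4 neutrophil, 1 of 5 mast cell and basophil, 1 of 3 NK cell and 1 of 4 airway markers, all higher, 0 of 4 fibroblast markers, and 2 of 4 eosinophil markers higher with the other 2 lower. Their part in the results below was not tested, and in such pooled samples a change in the share of a cell type cannot be told apart from a change of RNA per cell.

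Chromatin modifiers set how readily a gene can be transcribed. DNA methyltransferases place methyl groups on cytosine and TET enzymes oxidize them. Polycomb complexes keep genes silent through EZH2 or EZH1, which methylate histone H3, and through a second complex with CBX and BMI1 subunits, whereas MLL-type methyltransferases mark promoters and enhancers that are in use. Acetyltransferases such as CBP and p300 open chromatin, deacetylases reverse this, and BAF and CHD remodellers slide or evict nucleosomes. In lymphocytes these factors are known for holding cell identity and for setting which cytokine genes can respond to a stimulus.

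Below, a normalized count is the value the authors scaled to a common upper quartile, 1 of which stood for 28.8 to 31.6 counts depending on the library. A gene is called higher or lower where the quasi-likelihood test of edgeR gave a p under 0.05 after adjustment over 11711 genes by the method of Benjamini and Hochberg. All adjusted p values given come from this test. Log2 fold changes are KO-labelled minus WT.

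Of the 47 chromatin modifiers, 4 were higher in the KO-labelled libraries (8.51%): Chd7, Jarid2, Cbx7 and Kmt2c. Across all genes tested, 8.8% were called higher, so the share among the chromatin modifiers was close to the background. Only Hdac2 was called lower (2.13% of members, against 4.97% of all genes). No member changed at least 2-fold, a size that 5.47% of all genes reached together with an adjusted p under 0.05. The log2 fold changes of the members ran from -0.34 to 0.76 with a median of 0.14, beside 0.01 over all genes tested, and 41 of the 47 were within 0.5 of 0. At an unadjusted p under 0.05 there were 14 members on the higher side (29.8%, against 17.1% of all genes) and 2 on the lower (4.26%, against 13.1%), together 34% of the list beside 30.2% of all genes. The plot of fitted differences shows these estimates by group of function.

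**Figure D1:**
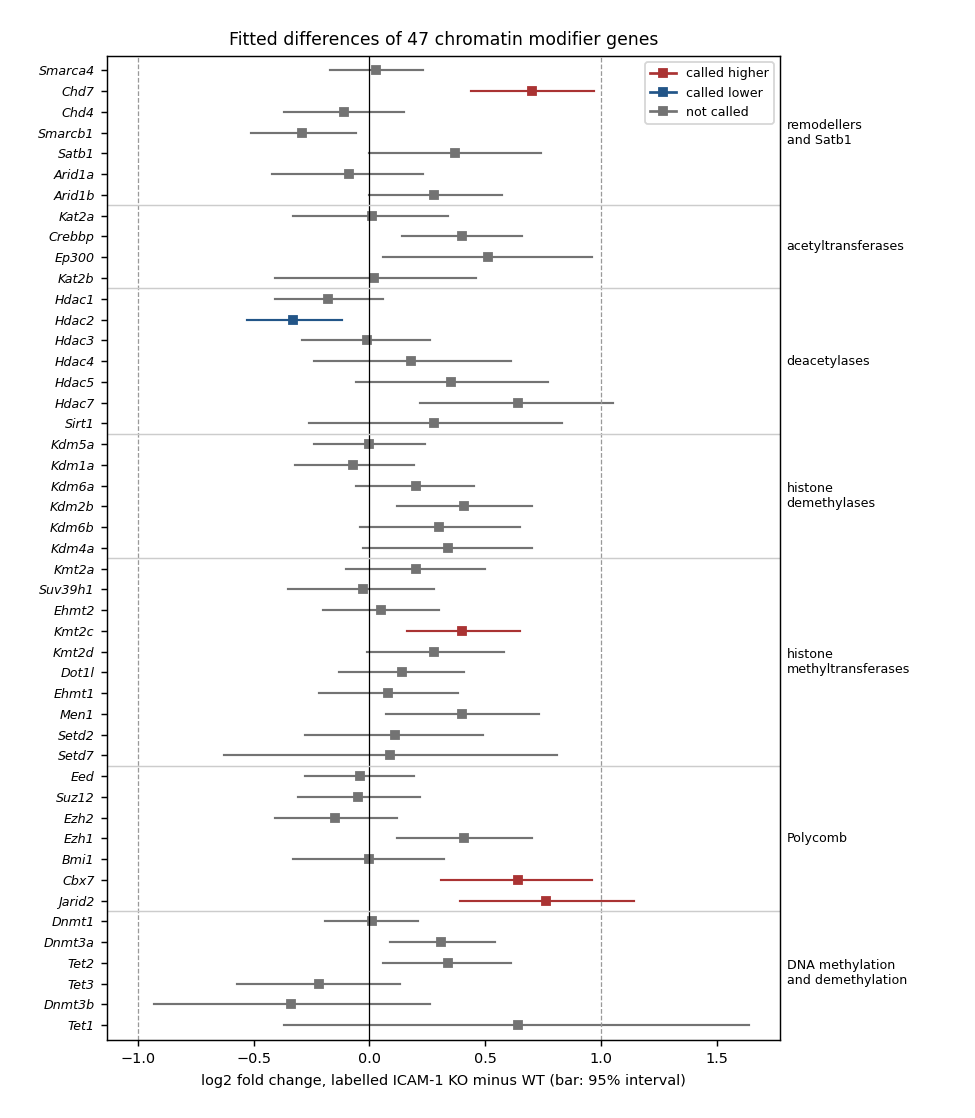
Log2 fold change (x axis, KO-labelled minus WT) of each of 47 chromatin modifier genes, grouped by function; squares are edgeR estimates, bars 95% intervals, dashed lines 2-fold, and n is 2 libraries a group. The 4 genes called higher lie between 0.40 and 0.76, Hdac2 at -0.33 is the gene called lower, and no estimate reaches 2-fold.

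Without any test, both KO-labelled libraries lay above both WT libraries for 20 members (42.6%), against 28.3% of all genes tested. Both lay below for 5 members (10.6%), against 31.3% of all genes. The values of the other 22 members overlapped between the groups.

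Chd7 encodes a chromodomain remodeller that binds enhancers. Its WT libraries held 115.8 and 123.2 normalized counts, and the KO-labelled ones 171.7 and 210.0. The groups did not overlap, and the log2 fold change was 0.70 (SE 0.117, 95% interval 0.44 to 0.97, adjusted p = 0.00705), 1.63-fold. Leaving out 1 library at a time gave log2 fold changes from 0.54 to 0.85, and the call was lost without WT replicate 1, where the adjusted p was 0.051.

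Jarid2 encodes a partner of PRC2 that helps bring the complex to its targets. Its level was 20.6 and 20.4 normalized counts in WT and 37.1 and 31.3 in KO-labelled libraries. This was the largest fitted difference among the members, a log2 fold change of 0.76 (SE 0.165, 95% interval 0.39 to 1.14, adjusted p = 0.0186) or 1.7-fold. With 1 library left out the value stayed between 0.65 and 0.87, with adjusted p between 0.0135 and 0.0864, and it was called only without ICAM-1 KO replicate 2.

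Cbx7, a chromodomain subunit of the other Polycomb complex, stood at 26.8 and 30.9 normalized counts in WT. In the KO-labelled libraries it was at 45.4 and 42.7, above both WT libraries, with a log2 fold change of 0.64 (SE 0.145, 95% interval 0.31 to 0.96, adjusted p = 0.0229). It remained between 0.54 and 0.74 with 1 library left out, and was called without WT replicate 2 and without ICAM-1 KO replicate 2 only. Exons of Cbx7 share bases with Apobec3 on the other strand, and no source says that strand was used in counting. Apobec3 was not called, with 242.7 and 247.0 normalized counts in WT and 224.8 and 224.3 in the others.

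Kmt2c encodes an MLL-type methyltransferase of enhancers. The gene had 66.7 and 63.6 normalized counts in WT and 82.3 and 86.8 in KO-labelled libraries, a log2 fold change of 0.40 (SE 0.107, 95% interval 0.16 to 0.65, adjusted p = 0.0393). Its estimate lay between 0.35 and 0.45 in every fit that left out 1 library, none of which called it (adjusted p 0.065 to 0.168). An overlapping gene on the other strand, Gm42585, held only 25 to 63 counts per library.

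Hdac2 encodes a class I deacetylase, a catalytic subunit of several corepressor complexes. It was the only member called lower: 140.9 and 144.4 normalized counts in WT against 113.6 and 110.1 in KO-labelled libraries. The spread within each group was small beside this gap, and the log2 fold change was -0.33 (SE 0.0914, 95% interval -0.53 to -0.12, adjusted p = 0.0467). The call sat just inside the threshold and was made in none of the fits with 1 library left out, where the adjusted p ran from 0.112 to 0.165 and the estimate from -0.34 to -0.31.

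**Figure D2:**
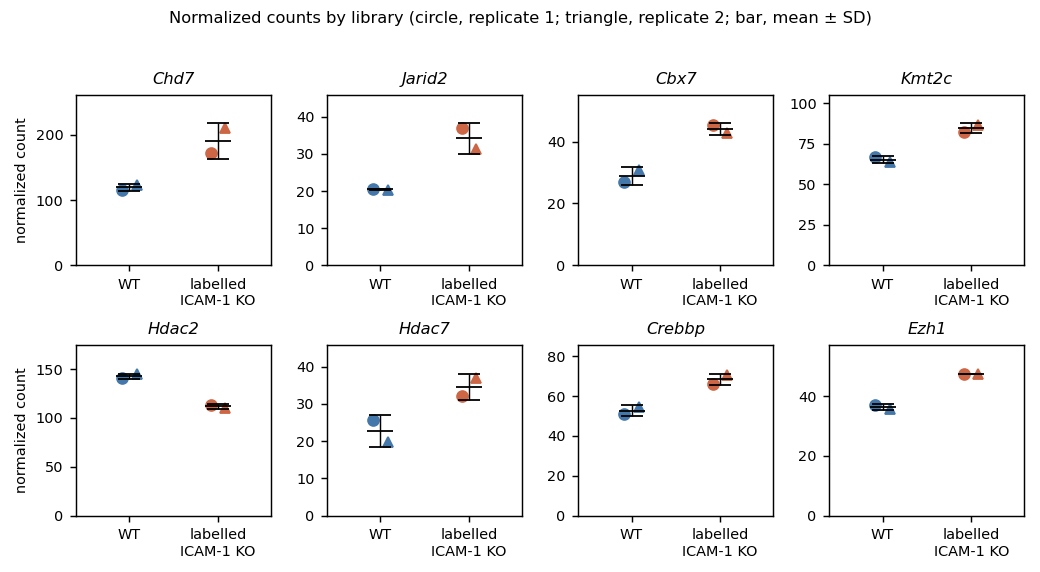
Normalized count (y axis, from 0) in each of the 4 libraries for the 5 genes called and, for comparison, Hdac7, Crebbp and Ezh1; bars are the mean ± SD of 2 libraries. The 2 groups are apart in all 8 panels, and of these genes Hdac2 alone is lower in the KO-labelled libraries. The panels were picked from genes at or near the threshold and do not stand for the list. Of all 47 members, 22 overlapped between groups, 20 lay above (42.6%, all genes 28.3%) and 5 below (10.6%, all genes 31.3%).

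Next to the threshold were Hdac7 and Crebbp. Hdac7, a class IIa deacetylase that shuttles between nucleus and cytoplasm in lymphocytes, had 25.7 and 19.7 normalized counts in WT and 32 and 37 in KO-labelled libraries. Its log2 fold change of 0.64 equalled that of Cbx7, but the larger spread left an adjusted p of 0.0508, and it shares exon bases with Slc48a1 on the other strand. Crebbp, the gene of the acetyltransferase CBP, had 50.8 and 54.6 against 66.2 and 70.3, a difference of 0.40 on the log2 scale (adjusted p = 0.0513). Both were called with TMM factors and with DESeq2.

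Promoter windows of the called genes are shown because these genes are the ones called higher or lower and since the list as a whole was rich in CpG. The windows are RefSeq start sites on GRCm38.p6, from 250 bases before to 50 after the start, and are printed 5′ to 3′ on the gene's strand. Capitals mark 3 motifs on either strand, with overlapping matches each counted. The first is GGGCGG, the core of the box bound by SP1. The second is CCAAT, the box bound by NF-Y. The third is TATAAA, the core of the TATA box. Jarid2 has start sites at chr13:44730524-44730823 and chr13:44731021-44731320, both on the plus strand.
Jarid2 start 1: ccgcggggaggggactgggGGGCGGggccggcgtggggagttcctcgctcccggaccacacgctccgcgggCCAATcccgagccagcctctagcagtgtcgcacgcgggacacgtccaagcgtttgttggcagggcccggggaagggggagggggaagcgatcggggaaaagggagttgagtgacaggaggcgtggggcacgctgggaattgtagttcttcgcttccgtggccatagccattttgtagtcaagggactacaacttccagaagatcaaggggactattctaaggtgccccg
Jarid2 start 2: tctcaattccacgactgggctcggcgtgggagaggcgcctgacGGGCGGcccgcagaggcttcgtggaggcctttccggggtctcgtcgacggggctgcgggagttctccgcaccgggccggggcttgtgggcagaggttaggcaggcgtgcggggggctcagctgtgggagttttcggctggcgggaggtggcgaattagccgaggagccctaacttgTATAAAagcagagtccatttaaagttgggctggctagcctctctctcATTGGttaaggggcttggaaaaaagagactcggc
For Cbx7 the window is chr15:79932597-79932896 on the minus strand, and for Kmt2c it is chr5:25498734-25499033, also minus.
Cbx7: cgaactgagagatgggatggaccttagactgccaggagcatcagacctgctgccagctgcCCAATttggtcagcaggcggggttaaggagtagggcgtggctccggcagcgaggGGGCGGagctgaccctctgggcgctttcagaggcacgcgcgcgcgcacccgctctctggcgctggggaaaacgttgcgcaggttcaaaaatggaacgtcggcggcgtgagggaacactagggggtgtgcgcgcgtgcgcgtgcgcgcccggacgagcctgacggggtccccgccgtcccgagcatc
Kmt2c: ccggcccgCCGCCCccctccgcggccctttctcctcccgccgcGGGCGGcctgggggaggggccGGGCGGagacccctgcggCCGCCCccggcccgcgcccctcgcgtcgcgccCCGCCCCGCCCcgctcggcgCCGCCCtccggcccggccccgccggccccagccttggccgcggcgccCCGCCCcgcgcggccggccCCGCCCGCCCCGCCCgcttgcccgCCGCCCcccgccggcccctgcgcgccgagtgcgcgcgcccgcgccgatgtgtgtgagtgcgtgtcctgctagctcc
The window of the gene called lower, Hdac2, is chr10:36974294-36974593 on the plus strand.
Hdac2: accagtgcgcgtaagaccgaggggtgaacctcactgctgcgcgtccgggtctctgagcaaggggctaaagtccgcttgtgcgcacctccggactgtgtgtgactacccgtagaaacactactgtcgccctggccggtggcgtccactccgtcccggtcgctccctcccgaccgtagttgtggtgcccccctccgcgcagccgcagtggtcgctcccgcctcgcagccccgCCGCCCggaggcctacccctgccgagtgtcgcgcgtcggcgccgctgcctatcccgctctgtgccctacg

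The Kmt2c window held 56 CpG and 12 SP1 motifs at 88.0% G and C, Hdac2 36 CpG and 1 SP1 motif, Cbx7 33 CpG, and the windows of Jarid2 24 and 23. Of the 47 members, 42 gave a window, with 64 windows, and Chd7, Hdac1, Hdac3, Kdm5a and Kdm6b gave none. Windows on chromosome 18, where Hdac3 lies, were left out for the members but not for all genes tested. The median member window held 27.5 CpG and 65.0% G and C, against 21 CpG and 60.7% in 11276 windows of 8813 genes tested. The SP1 motif was found in 70.3% of the member windows and in 62.4% of all windows, the NF-Y motif in 35.9% and 37.9%. The TATA motif occurred in 1 member window, the second start of Jarid2 (1.6%), beside 7.2% of all windows. These are counts of letters and were not tested.

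Levels can be compared between genes only per length, and are given as normalized counts per kb of exon for 46 members (no exon length was taken for Hdac3). Hdac1 led at 83.9 in the WT libraries, followed by Dnmt1 at 34.8, Hdac2 at 31.9, Eed at 25.6 and Smarca4 at 23.7. Each of these was above the next beyond the range of its WT libraries. Lowest were Jarid2 at 2.11, Setd7 at 0.633 and Tet1 at 0.168 per kb. The median member stood at 5.01 per kb in WT and 5.88 in KO-labelled libraries, beside 6.39 for all genes tested in WT, and 18 of the 46 lay above that median of all genes. Among the 45 pairs of neighbours in the WT order, 32 had WT libraries that overlapped, so most of the order inside the list is not resolved. Hdac1, Dnmt1, Hdac2, Eed, Smarca4, Suz12 and Kdm1a held the first 7 places in both groups, in the same order. Chd7 moved from place 15 to 10, Cbx7 from 26 to 20, and Jarid2 from 44 to 37.

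**Figure D3:**
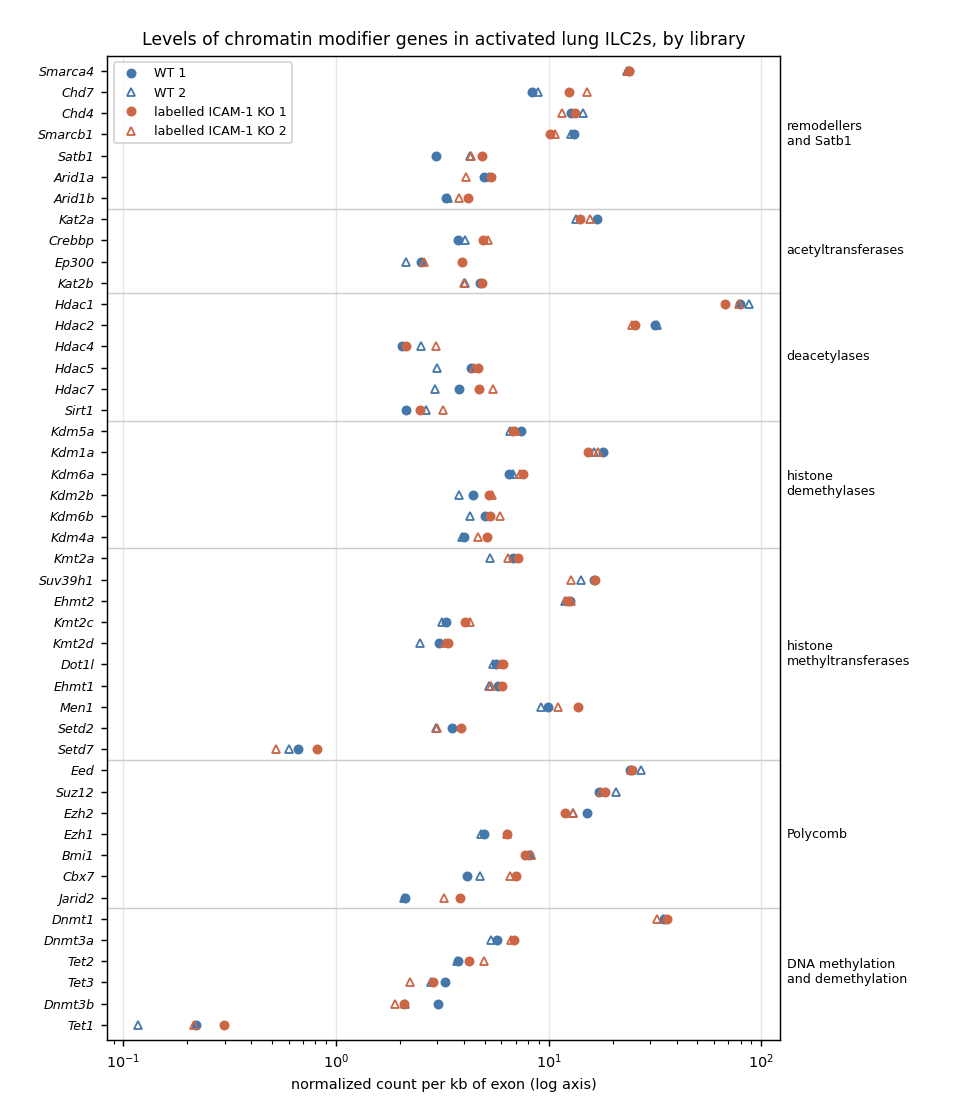
Normalized count per kb of exon (x axis, log scale) of 46 chromatin modifier genes in each library, blue for WT and orange for KO-labelled, circles for replicate 1 and triangles for replicate 2. Levels run from 0.168 (Tet1) to 83.9 (Hdac1) in WT, a spread between genes far wider than that between libraries.

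Among DNA methyltransferases and TET enzymes, none of 6 was called. Dnmt1, which copies methylation after replication, held 258.5 and 254.9 normalized counts in WT and 267.4 and 239.1 in KO-labelled libraries (log2 fold change 0.01, 95% interval -0.19 to 0.21). The 2 de novo enzymes had values of opposite sign, neither called. Dnmt3a had 95.3 and 89.1, then 114.3 and 110.9 (0.31 on the log2 scale, adjusted p = 0.0643), whereas Dnmt3b had 15.5 and 10.8, then 10.7 and 9.65 (-0.34, adjusted p = 0.43). Per kb of exon, the ratio of Dnmt3a to Dnmt3b was 1.89 and 2.54 in WT and 3.27 and 3.52 in KO-labelled libraries.

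Tet2, the dioxygenase most often studied in blood cells, was at 63.4 and 62.2 normalized counts in WT and at 71.4 and 84.2 in the others (0.34, adjusted p = 0.099). Tet3 had 54.5 and 46.7, then 47.9 and 37.4, and its groups overlapped (-0.22, adjusted p = 0.371). Tet1 was near the bottom of the list, with 56 to 131 counts per library. Its log2 fold change of 0.64 had an interval from -0.37 to 1.64.

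No core subunit of PRC2 was called. Eed, the subunit that binds the mark, held 92.7 and 103.6 normalized counts in WT and 94.1 and 93 in KO-labelled libraries (95% interval of the log2 fold change -0.28 to 0.19). Suz12, its scaffold, held 85 and 103.0, then 91.5 and 87.3 (-0.31 to 0.22). Ezh2, the main methyltransferase of dividing cells, was at 100.5 and 86.9 in WT and 79.5 and 86.6 in the others, a log2 fold change of -0.15 (adjusted p = 0.435). Its paralog Ezh1, known from resting cells, was at 37.1 and 35.7, then 47.4 and 47.5 (0.41, adjusted p = 0.0649). The ratio of Ezh1 to Ezh2 per kb did not overlap between groups, with 0.331 and 0.368 in WT and 0.535 and 0.492 in KO-labelled libraries, but with 2 libraries a group the exact two-sided permutation test cannot give a p below 0.333. Bmi1, a RING-finger partner in the other complex, held 32.3 and 32.8 against 30.9 and 32.8 (95% interval -0.33 to 0.32). Of the 7 Polycomb members, 2 were called higher (28.6%, beside 8.8% of all genes tested). They were Jarid2, a partner of PRC2, and Cbx7, a chromodomain subunit of the other complex. Of 24 other Polycomb genes tested, from the wider list given below, 1 was called higher (4.17%) and 0 lower, with a median log2 fold change of -0.06. Both KO-labelled libraries were above both WT libraries for 5 of these 24 (20.8%, all genes 28.3%). Both were below for 9 (37.5%, all genes 31.3%).

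Among 10 histone methyltransferase genes, counting their partner Men1, only Kmt2c was called. A positive log2 fold change was found for 9 of the 10, for 51.2% of all genes tested and for 69.9% of all genes of at least 8 kb, the length class of 7 of these 10. Kmt2d, the closest paralog of Kmt2c, had 61.1 and 49.5 normalized counts in WT and 67 and 65 in KO-labelled libraries (0.28, adjusted p = 0.186). The ratio of Kmt2c to Kmt2d overlapped between groups. Kmt2a (MLL1) had 113.8 and 88.2, then 119.8 and 107.7 (0.20, adjusted p = 0.348). Men1 encodes menin, which binds MLL1, and had 38.1 and 35.2, then 52.6 and 42.7 (0.40, adjusted p = 0.0991).

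Setd2, which marks transcribed gene bodies, had 37.8 and 31.7 normalized counts in WT and 41.5 and 32.1 in KO-labelled libraries (log2 fold change 0.11). Of the enzymes that place repressive methylation on histone H3, Suv39h1 had 86.4 and 74.6, then 86.9 and 67.7 (-0.03, adjusted p = 0.899). Ehmt2 had 69.3 and 65.1, then 66.7 and 69.9 (0.05), and its partner Ehmt1 a log2 fold change of 0.08. Groups overlapped for each of these, and Dot1l (0.14) and Setd7 (0.09) were also not called.

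Histone demethylases gave 6 members with no call. Kdm1a, the amine oxidase of the CoREST complex, was at 93.6 and 85.2 normalized counts in WT and 79.2 and 88.2 in KO-labelled libraries (-0.07 on the log2 scale). Kdm6a had 54.4 and 57.1, then 63.9 and 61.8 (0.20, adjusted p = 0.273), and Kdm6b, the related enzyme that inflammatory signals induce, had 35 and 29.6, then 37.1 and 40.9 (0.30, adjusted p = 0.22). Both remove the Polycomb mark. Kdm2b (0.41, adjusted p = 0.0655) and Kdm4a (0.34, adjusted p = 0.196) also had KO-labelled libraries above WT, and Kdm5a stood at 0.00 (95% interval -0.24 to 0.24). Both KO-labelled libraries were above both WT libraries for 4 of the 6, a pattern that 28.3% of all genes tested had. It was found in 40.7% of all genes of at least 8 kb, the class of Kdm2b, Kdm5a and Kdm6a. Among shorter genes, the class of Kdm1a, Kdm4a and Kdm6b, 25.9% had it.

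Among deacetylases, Hdac2 was the one called. The class I gene Hdac1, with Hdac2 a subunit of the same complexes, had 274.7 and 303.0 normalized counts in WT and 231.7 and 270.2 in KO-labelled libraries (-0.18, adjusted p = 0.296). The third class I gene, Hdac3, had 93.4 and 80.3, then 78.9 and 89.9 (-0.01). The class IIa genes Hdac4 (0.18), Hdac5 (0.35) and Hdac7 (0.64) had positive values, none of them called. Sirt1, which needs NAD to deacetylate, had 11.4 and 14.1, then 13.3 and 17 (0.28, adjusted p = 0.469). The ratio of Hdac1 to Hdac2 per kb of exon overlapped between the groups, at 2.53 and 2.72 in WT and 2.65 and 3.19 in the others.

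Acetyltransferase genes gave 4 members, none called. Ep300, the paralog of Crebbp, had 35.8 and 30.4 normalized counts in WT and 56 and 37 in KO-labelled libraries. The KO-labelled values differed widely, and the difference of 0.51 on the log2 scale was not called (adjusted p = 0.119); the adjusted p was 0.00916 without ICAM-1 KO replicate 2 and up to 0.636 in the other fits with 1 library left out. Kat2a (0.01) and Kat2b (0.02), the catalytic subunits of SAGA-type complexes, had no called difference.

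Among the remodellers and Satb1, only Chd7 was called. The ATPase gene of the BAF complex, Smarca4, was at 155.5 and 151.3 normalized counts in WT and 154.0 and 153.5 in KO-labelled libraries (0.03, 95% interval -0.17 to 0.23). Its partner Smarcb1 had 104.0 and 101.4, then 80.7 and 84.5 (-0.29, adjusted p = 0.0893). Arid1a had 57.3 and 60.4, then 61.7 and 47 (-0.09), and the alternative subunit Arid1b had 41.6 and 42.4, then 52.6 and 47.9 (0.28, adjusted p = 0.164). Chd4, the ATPase of the NuRD complex, had 102.1 and 116.5, then 106.3 and 92.7 (-0.11). Satb1, a genome organizer of lymphocytes, had 56.4 and 80.9, then 92.4 and 81.9 (0.37, adjusted p = 0.165), and was called in the fit without WT replicate 2 (adjusted p = 0.0406).

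Of 10 ratios between paralogs, 4 did not overlap between groups, each with KO-labelled libraries above WT: Dnmt3a to Dnmt3b, Ezh1 to Ezh2, Tet2 to Tet3 and Arid1b to Arid1a. Tet2 to Tet3 was 1.15 and 1.32 per kb in WT and 1.48 and 2.23 in the others, and Arid1b to Arid1a 0.661 and 0.64, then 0.777 and 0.929. The exact two-sided permutation p was 0.333 for each of the 4, the smallest that 2 libraries against 2 allow. With labels shuffled, the same share of arrangements (0.333) separates the groups, beside 4 of the 10 ratios here. The direction depends on which gene of a pair was put on top, so the shared direction is not a result.

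The chromatin modifiers have long transcripts, and the longer ones had the higher log2 fold changes. Median summed exon length was 8067 bases for the members and 4339 for all genes tested. Of the 24 members of at least 8 kb, 21 had a positive log2 fold change (87.5%) with a median of 0.28, and of the 22 shorter members 12 did (54.5%) with a median of 0.01. Over all genes tested the medians were 0.16 for 1954 long and -0.02 for 9347 short genes. Both KO-labelled libraries were above both WT libraries for 14 of the 24 long members (58.3%) and for 40.7% of all long genes, and below for 0 of the long members and 14.5% of all long genes. Spearman's rho between length and log2 fold change was 0.43 across 46 members and 0.23 across 11301 genes, and Pearson's r with log2 length was 0.4 and 0.041. These are given as a description since all genes share the same 4 libraries. The 8 kb split was set after the values were seen, and the part of length in the calls was not tested.

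**Figure D4:**
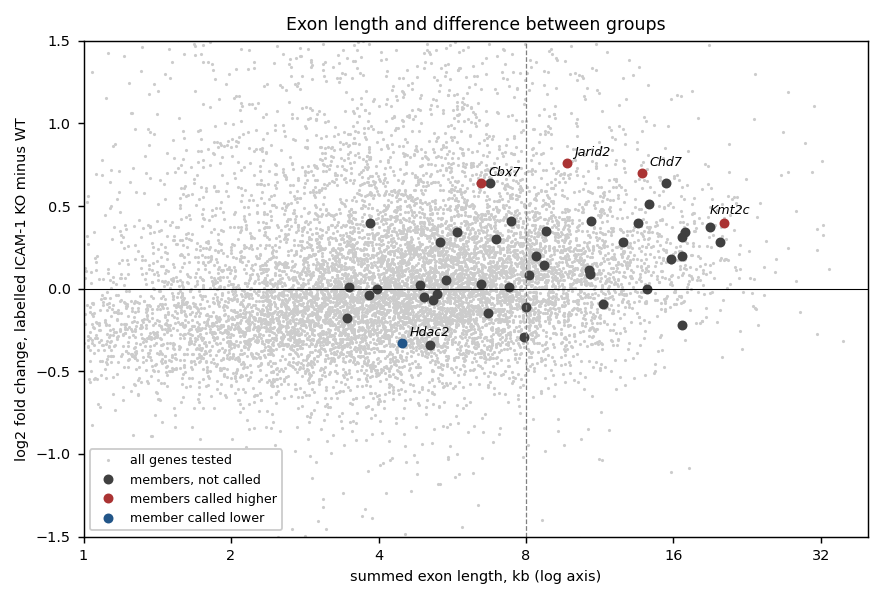
Log2 fold change (y axis, KO-labelled minus WT) against summed exon length in kb (x axis, log scale) for 46 chromatin modifiers over all genes tested (grey; 976 of 11301 lie outside the axes). The dashed line marks 8 kb; all members called higher except Cbx7 are longer, and Hdac2 is shorter.

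Some members lie near Icam1 itself, on chromosome 9 at 21015985 to 21028817 (mm10). Dnmt1 is 56 kb and Smarca4 587 kb away. Neither was called, with log2 fold changes of 0.01 and 0.03.

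Other chromatin genes were read from a wider list of 164 genes with a row, 159 of which were tested. There were 2 higher (1.26%) and 5 lower (3.14%), both below the shares of all genes, with a median log2 fold change of 0.02. The higher ones were Kmt2e, an MLL-family gene, with 98.8 and 107.1 normalized counts in WT and 139.1 and 142.9 in KO-labelled libraries (0.48, adjusted p = 0.0146), and Phf1, a PRC2 accessory gene like Jarid2, with 13.8 and 13.2, then 22.6 and 24.1 (0.82, adjusted p = 0.0246). The lower ones included Dpy30 (-0.54, adjusted p = 0.0115), a core subunit of the MLL complexes, and the methyltransferases Smyd2 (-0.61, adjusted p = 0.0179), Smyd5 (-0.57, adjusted p = 0.0436) and Prmt1 (-0.44, adjusted p = 0.0194). Uhrf1, which guides Dnmt1 to newly replicated DNA, fell from 271.0 and 234.2 to 195.9 and 181.4 (-0.39, adjusted p = 0.0336), while Dnmt1 was not called. Kmt2e, Phf1 and Smyd2 share exon bases with another counted gene on the other strand.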

How the data were processed

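RNA was sequenced from 4 libraries of sorted, IL-33-activated lung ILC2s, 2 WT and 2 labelled ICAM-1 KO, grouped by the sample labels. Starting from 10 ng of RNA, the authors prepared SMARTer Ultra Low Input cDNA libraries, aligned the reads to mm10 using STAR, took gene models from GENCODE M20, and used the E/M method of Partek to estimate expected counts per gene; the submitters' processing notes also name CASAVA 1.8.2 and give STAR as 3.5.3, which differs from the version in the paper. The deposited expected counts (22558 genes) are not normalized. The authors also deposited a normalized signal (18324 genes), made by upper quartile scaling, in which each value equals the count plus 1 divided by a factor per library. GSA, which the paper used for differential expression, was not run here.

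Counts were rounded and tested with edgeR 4.0.16 in R 4.3.3 (quasi-likelihood test, upper quartile factors), over the 11711 genes whose normalized counts averaged 1 or more and summed to 10 or more, with Benjamini-Hochberg adjustment. On simulated data with 200 changed genes, 69.8% of those changed by 1 on the log2 scale and 92.2% of those changed by 2 were called, and 5.54% of calls were false. The simulation gave genes of the same level the same spread. Its changes were larger than any among the members (at most 0.76), so these shares do not describe the calls made here. Library totals were 24796148 to 28782471 counts, and the precision also depends on the spread between 2 pools a group. Alternatives were TMM factors, DESeq2 1.42.0, limma 3.58.1 on log2 of the normalized signal plus 1, other filters, an older form of the test, a replicate block, a 2-fold rule and leaving out each library. Each library is a pool, and p-values measure the spread between pools. Exon lengths and overlaps came from GENCODE M21, and 14 members share exon bases with another counted gene, which counting without strand cannot separate.

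The members and gene lists were chosen with earlier results of these data known. By rule, every member was accounted for; called members and a fixed set of main enzymes and subunits were given with each library's value, the smallest adjusted p in each direction chose up to 5 names of the wider list, and Icam1 was given as the targeted gene. Crebbp and Hdac7 were on that set, and Kdm2b, Kdm4a, Smarcb1 and Arid1b were named as further members. Marker lists are given by counts of calls and summed levels. No promoter was taken for members without a RefSeq entry or on chromosome 18, and no protein sequence was used here.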

Additional observations from a re-analysis of the deposited data

How the results depend on the processing

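The 4 calls higher and 1 lower among 47 members were recomputed under each alternative. Members higher were 0 with no filter on low counts and 0 under the 2-fold rule, and 0 to 4 with 1 library left out; members lower were 0 with no filter, with at least 10 counts in every library, with filterByExpr, with the older form of the test, under the 2-fold rule and with 1 library left out (0 to 0). With the replicate number as a block there were 4 higher and 0 lower members. Over all genes tested, the deviations of same-numbered libraries had a correlation of -0.058. That value shows no deviation shared across genes as a whole, and cannot show whether the numbers pair libraries for some genes. For the wider list, higher genes were 6 with DESeq2, 0 with no filter, 4 with the replicate block, 0 under the 2-fold rule and 0 to 5 with 1 library left out; lower genes were 10 with DESeq2, 1 with no filter, 0 under the 2-fold rule and 1 to 3 with 1 library left out. Without a filter 22158 genes entered the test, of which 334 were higher and 201 lower; DESeq2 called 1261 and 930. The cause of these changes was not tested. Over members and alternatives, 492 log2 fold changes kept direction and side of the threshold, 24 lost a call, 7 gained one, and none of the called values changed sign; 41 uncalled values near 0 did. Only the 4 members called higher and the 1 called lower could lose a call, and most values that stayed the same are of uncalled members. In 8 other fits with every library, Chd7, Jarid2 and Cbx7 were called in 7, Kmt2c in 6 and Hdac2 in 3. A lone library in a group was assumed to vary like the other group. With 2 libraries a group, changes smaller than those simulated may go uncalled at this depth.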
